A study of Mus musculus with 21 samples.

Results

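The 9 genes described here are Pax3, Pax7, Six2, Six4, Six5, Eya1, Eya2, Eya3 and Eya4, taken by name from a table of 49997 mouse genes, and every peak within 1 kb of their gene span was collected. The libraries were made by CUT&RUN (Cleavage Under Targets & Release Using Nuclease), in which a nuclease tethered to an antibody releases the DNA around its target, from C2C12, a mouse myoblast line that fuses into myotubes when serum is withdrawn. Of 21 libraries, 14 were used here, 7 with an antibody to the proteasome activator PSME3 and 7 with an antibody to H3K4me3, the histone mark of active promoters, while the 7 IgG libraries were not analysed here. Cycling cells, grown in 20% FBS, were frozen in 10% DMSO without fixation and gave 3 biological replicates per antibody. Day 2 cells, kept for 48 h in 2% horse serum, gave 1 library per antibody in each of 4 preparations, made from fresh or from frozen cells that were either native or crosslinked with 0.1% formaldehyde. All groups were the same unmodified cell line, and peaks of the 3 cycling replicates were also called by the authors in aggregate, which gives a pooled list per antibody.

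In vertebrate embryos, muscle progenitors are set up by PAX3 and PAX7, paired-domain transcription factors that act upstream of the myogenic bHLH factors, and PAX7 later marks the satellite cells of adult muscle. Six2, Six4 and Six5 encode homeodomain factors of the sine oculis family, which bind MEF3 sites in muscle genes. EYA proteins bind no DNA themselves, are recruited by these factors as transcriptional co-activators, and carry a phosphatase domain. H3K4me3 usually forms a peak around the start of an active gene, and some genes that define a cell's identity carry unusually broad domains of it.

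The base sequence before the listed start was printed for 4 genes that differ most in what was found there. The start of Six5 lay under a pooled PSME3 peak that no replicate list held, and Pax7 had the broadest H3K4me3 domain. Six4 was one of the 2 genes whose rank of H3K4me3 width was higher in every day 2 library. That order held at 13.2% of the 20262 genes with H3K4me3 in any library. Six2 had no peak at all. Each run holds the 250 bases before the start, 5′ to 3′ on the strand of the gene, from RefSeq on GRCm38.p6, with CG dinucleotides in capitals. The gene spans of Pax7 and Six4 reach beyond the listed start, to 139833530 and 73114031, so their runs lie inside the span.
Six5, plus strand of chr7:19094294-19094543: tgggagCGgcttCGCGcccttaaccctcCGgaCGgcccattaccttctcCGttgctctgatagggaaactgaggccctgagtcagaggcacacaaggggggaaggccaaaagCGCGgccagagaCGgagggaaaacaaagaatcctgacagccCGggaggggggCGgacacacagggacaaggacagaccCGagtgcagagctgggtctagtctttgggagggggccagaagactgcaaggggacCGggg
Pax7, minus strand of chr4:139832969-139833218: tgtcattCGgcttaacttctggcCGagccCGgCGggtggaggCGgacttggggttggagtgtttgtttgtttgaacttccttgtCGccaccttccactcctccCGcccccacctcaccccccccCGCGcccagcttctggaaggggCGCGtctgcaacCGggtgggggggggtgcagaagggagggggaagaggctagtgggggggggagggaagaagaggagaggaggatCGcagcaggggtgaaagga
Six4, first listed start, minus strand of chr12:73113246-73113495: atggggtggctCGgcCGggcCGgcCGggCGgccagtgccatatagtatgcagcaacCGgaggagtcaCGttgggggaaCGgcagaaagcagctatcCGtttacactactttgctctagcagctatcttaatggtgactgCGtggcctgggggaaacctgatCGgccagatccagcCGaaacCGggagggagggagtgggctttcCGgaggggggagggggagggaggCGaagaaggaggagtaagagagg
Six2, minus strand of chr17:85688255-85688504: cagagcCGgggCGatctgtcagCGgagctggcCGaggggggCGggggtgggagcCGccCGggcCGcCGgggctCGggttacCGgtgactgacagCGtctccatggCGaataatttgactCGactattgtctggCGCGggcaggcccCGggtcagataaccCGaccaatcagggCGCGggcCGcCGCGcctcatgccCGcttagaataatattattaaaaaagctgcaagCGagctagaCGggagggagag
The promoter table matched 6 of the 9 genes, with 2 starts each for Six4 and Eya4. The ratio of observed to expected CpG in the 250 bases was 0.546 for Six5, 0.516 for Pax7, 0.700 and 0.642 for the 2 starts of Six4, 0.857 for Eya3, 1.07 and 0.892 for the 2 starts of Eya4, and 1.02 for Six2. Over 32817 such stretches in the table, the median ratio was 0.752 for those that touched a pooled H3K4me3 peak and 0.213 for those that did not. The Six2 stretch, with 26 CpG and a GC content of 64.8%, therefore had a higher ratio than 99.2% of the stretches without a peak, and lay outside every listed peak.

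H3K4me3 was present at most of these genes in every library, whereas PSME3 was listed at few of them and in few libraries. In the pooled cycling list, 7 of the 9 genes had an H3K4me3 peak, against 35.9% of all genes and 60.9% of the 21900 protein-coding genes. Replicates 1, 2 and 3 held 7, 8 and 7 of the 9, with 33.5%, 38.7% and 34% of all genes. Each of the 4 day 2 lists held the same 7, with 29.9% of all genes in the fresh native, 32.4% in the fresh crosslinked, 31.6% in the frozen native and 32.6% in the frozen crosslinked list. The 7 genes with a peak in all 7 libraries were Pax3, Pax7, Six4, Six5, Eya1, Eya3 and Eya4, and 53.2% of protein-coding genes were marked in all 7. The mean number of the 9 genes with H3K4me3 was 7.33 ± 0.577 (SD, n = 3) in cycling cells and 7 in each of the 4 day 2 libraries, a difference of 0.333 with a two-sided exact permutation p of 0.857. These are bulk libraries, so fewer cells with the mark and less of the mark per cell cannot be told apart.

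**Figure D1:**
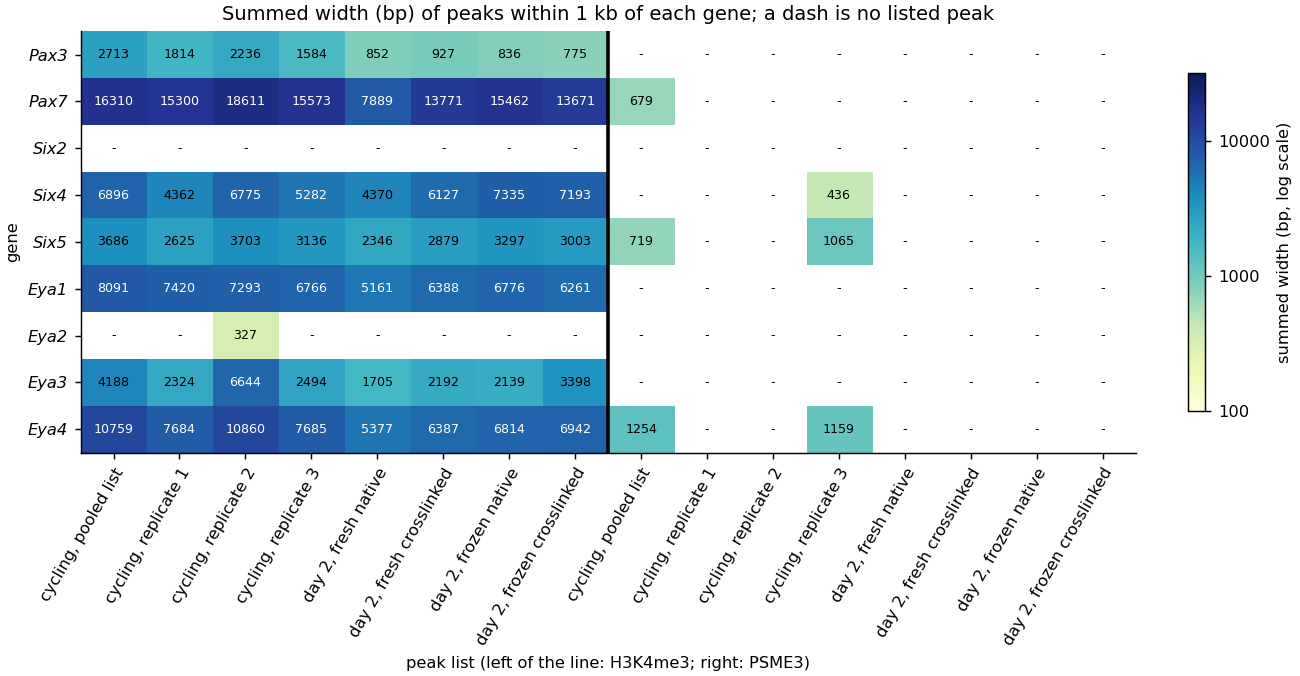
Summed width in bp of all peaks within 1 kb of each gene (rows) in the 16 peak lists (columns), H3K4me3 left of the black line and PSME3 right of it, with colour on a log scale and a dash where no peak was listed. H3K4me3 fills 7 of the 9 rows from end to end, whereas PSME3 appears only in the pooled cycling list and in cycling replicate 3.

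Numbers of peaks differed between libraries. The cycling H3K4me3 lists held 18077, 40999 and 19365 peaks with median widths of 1781, 662 and 1784 bp, so replicate 2 stood apart with more and narrower peaks, and the day 2 lists held 14372 to 20245. The cycling PSME3 replicates held 1200, 776 and 3070 peaks, the pooled list 5812, and the day 2 PSME3 lists 18 to 186. The lists contain no read numbers, so depth is unknown. As a check of the cells, all 6 myoblast markers (Myod1, Myf5, Cdh15, Des, Vim and Itga7) had H3K4me3 in all 7 libraries. Of 6 markers of differentiating muscle (Myog, Myh3, Ckm, Acta1, Mymk and Tnnt1), all had it in all 4 day 2 libraries and none in all 3 cycling libraries. None of 8 markers of other cell types (Ptprc, Pecam1, Epcam, Neurod1, Alb, Sox10, Cdh5 and Tyrobp) had it in all libraries of either stage, and 5 had it in none of the 7.

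Among the PAX genes, Pax7 carried one of the broadest H3K4me3 domains of these cells, and Pax3 a modest set of peaks away from its boundaries. The pooled Pax7 peak, at chr4:139820988-139836958, spanned 15971 bp, from 3990 bp before the start to 11980 bp into the gene. It ranked 27 by width among 23663 pooled peaks, while its fold enrichment over background, 9.35, was higher than that of 60.8% of them. The domain was therefore exceptional in breadth rather than in height. The main peak measured 15300, 16008 and 15573 bp in cycling replicates 1, 2 and 3, where it ranked 10, 22 and 15 by width. On day 2 it was a single peak of 15462 bp in the frozen native library, ranked 8, and 1 of 13671 bp in the frozen crosslinked library, ranked 15. In the fresh crosslinked library the region was split into peaks of 9160, 246 and 4365 bp, and in the fresh native library the widest piece measured 4183 bp. The fresh native list was the one with the fewest peaks of the 7. The predicted gene Gm46873 also lay within 1 kb of the main peak.

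Pax3 had no H3K4me3 peak within 1 kb of either end of its span in any list. Its main peak, at chr1:78188548-78190239, was 1692 bp wide with a fold enrichment of 10.6 in the pooled list, and ended 6897 bp inside the higher end of the gene. That peak was wider than 51.9% of the pooled peaks. In replicates 1, 2 and 3 it measured 1252, 1255 and 1120 bp, and in the 4 day 2 libraries 852, 927, 836 and 775 bp, so every day 2 peak was narrower. A second, weaker peak at chr1:78181924-78182355 (432 bp, fold enrichment 2.90) was overlapped in all 3 cycling replicates and in no day 2 library. Another at chr1:78193951-78194539 (589 bp) was overlapped in 2 replicates and in no day 2 library.

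The sine oculis homeobox genes ranged from no mark to some of the strongest enrichment listed. Six2 had no peak of either antibody in any of the 16 lists, and the nearest pooled H3K4me3 peak lay 455309 bp from it. Six4 was covered by a pooled peak of 6896 bp at chr12:73107746-73114641, with a fold enrichment of 19.9 that was higher than that of 95.7% of pooled peaks. In replicates 1 and 3 the peak over the start was shorter, 3999 and 4215 bp, and strongly enriched, with fold enrichments of 28.2 and 45.1. These ranked 152 of 18077 and 9 of 19365 in their lists. In replicate 2 a single peak of 6775 bp ranked 517 by fold enrichment. The same peaks lay within 1 kb of Mnat1, which encodes an assembly factor of the CDK-activating kinase, so the mark cannot be assigned to Six4 alone. Six5 lay under a pooled peak of 3686 bp at chr7:19092897-19096582 with a fold enrichment of 13.4, from 1647 bp before the start to 2038 bp into the gene. It was a single peak in all 7 libraries, of 2625, 3703 and 3136 bp in cycling replicates and 2346, 2879, 3297 and 3003 bp on day 2. These peaks also lay within 1 kb of Dmpk, the myotonic dystrophy protein kinase gene next to Six5.

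The MEF3 site bound by sine oculis homeobox proteins, searched as TCAGGTTTC on both strands, was found in 1 of the 8 promoter stretches of these genes and in 0.387% of all 32817. The match lay 99 to 91 bp before the first listed start of Six4, on the strand opposite to the gene, at chr12:73113336-73113344. It lay downstream of the second listed start, at 73113425, and inside the gene span, which reaches 73114031. It is shown because Six4 itself encodes such a protein, within the stretch chr12:73113321-73113359 and with the match in capitals.
Six4: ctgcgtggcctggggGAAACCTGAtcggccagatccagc
The shorter TCAGGTT, contained in it, was found in the same stretch alone of the 8 and in 3.50% of all stretches. The E-box CAGCTG, a site of the myogenic bHLH factors, was in none of the 8 and in 13.0% of all. A match is a run of letters and not evidence of binding, and H3K4me3 covered all 250 bases of this stretch in all 7 libraries.

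Of the EYA genes, Eya1 and Eya4 had broad and strong peaks, Eya3 a peak of ordinary width, and Eya2 almost none. The pooled Eya1 peak at chr1:14302684-14310774 was 8091 bp wide, wider than 98.8% of pooled peaks, and its fold enrichment was higher than that of 93.9% of them. It ended 261 bp inside the higher end of the gene. Eya1 was a single peak of 7420, 7293 and 6766 bp in the cycling replicates, and on day 2 of 6388, 6776 and 6261 bp in the fresh crosslinked, frozen native and frozen crosslinked libraries, whereas the fresh native library split it into 4071 and 1090 bp. The pooled Eya4 peak over the start, at chr10:23345522-23351194, was 5673 bp wide with a fold enrichment of 21.4, higher than that of 97.7% of pooled peaks. A further 5 weaker peaks lay inside the gene, which spans 247877 bp. The pooled Eya3 peak at chr4:132638246-132640991 was 2746 bp wide with a fold enrichment of 14.7, wider than 72.5% of pooled peaks. Eya2 had no peak in the pooled list, and only replicate 2, the library with the most peaks, listed 2 peaks of 143 and 184 bp with fold enrichments of 2.59 and 2.61. Eya2 was otherwise 30955 bp from the nearest pooled H3K4me3 peak.

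**Figure D2:**
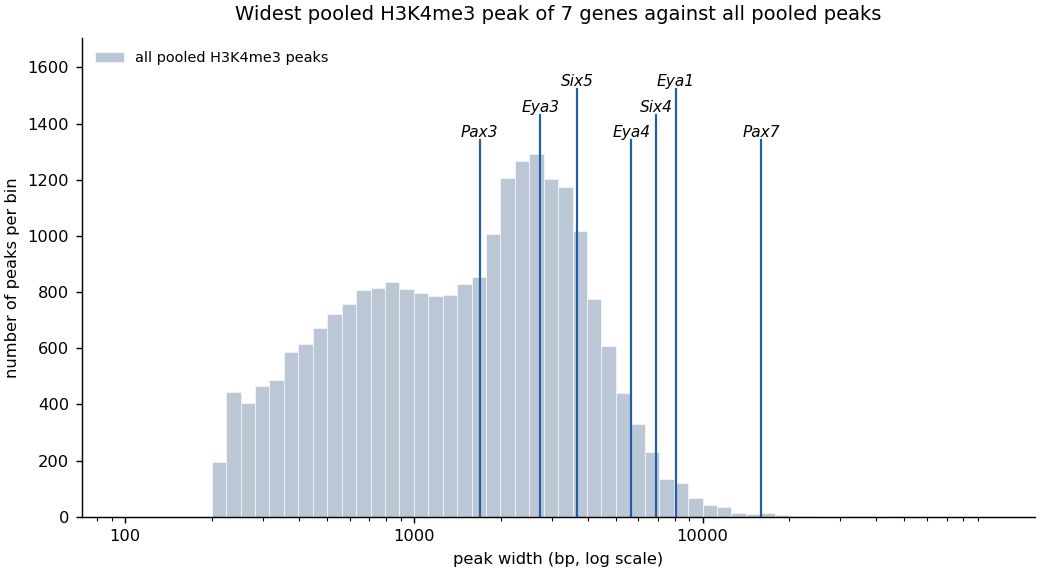
Histogram of the widths of all 23663 pooled cycling H3K4me3 peaks (x axis in bp on a log scale, y axis number of peaks per bin), with a vertical line at the widest pooled peak of each of the 7 genes that have one. The lines run from 1692 bp at Pax3 to 15971 bp at Pax7, and 4 of the 7 lie at or above 5 kb.

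The widest pooled peak reached 5 kb at 4 of the 7 marked genes, Pax7, Six4, Eya1 and Eya4. Of 13346 protein-coding genes with a pooled peak, 13.8% had a peak of that width. The median widest peak was 5673 bp over the 7 genes and 2920 bp over those protein-coding genes. All 6 myoblast markers also reached 5 kb, from 5004 bp at Cdh15 to 12722 bp at Vim. Of the 25 related genes described below, 16 had a pooled peak and 4 reached 5 kb. The breadth at the 7 genes is a description and was not tested.

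In all 7 libraries, H3K4me3 peaks covered every base of the 250 bp stretch before each listed start of Pax7, Six4, Six5, Eya3 and Eya4, while Six2 was uncovered in all of them. Of all stretches in the promoter table, 40.4% touched a pooled H3K4me3 peak and 9.65% a pooled PSME3 peak. The map of listed peaks along 4 of the genes shows the positions of both antibodies.

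**Figure D3:**
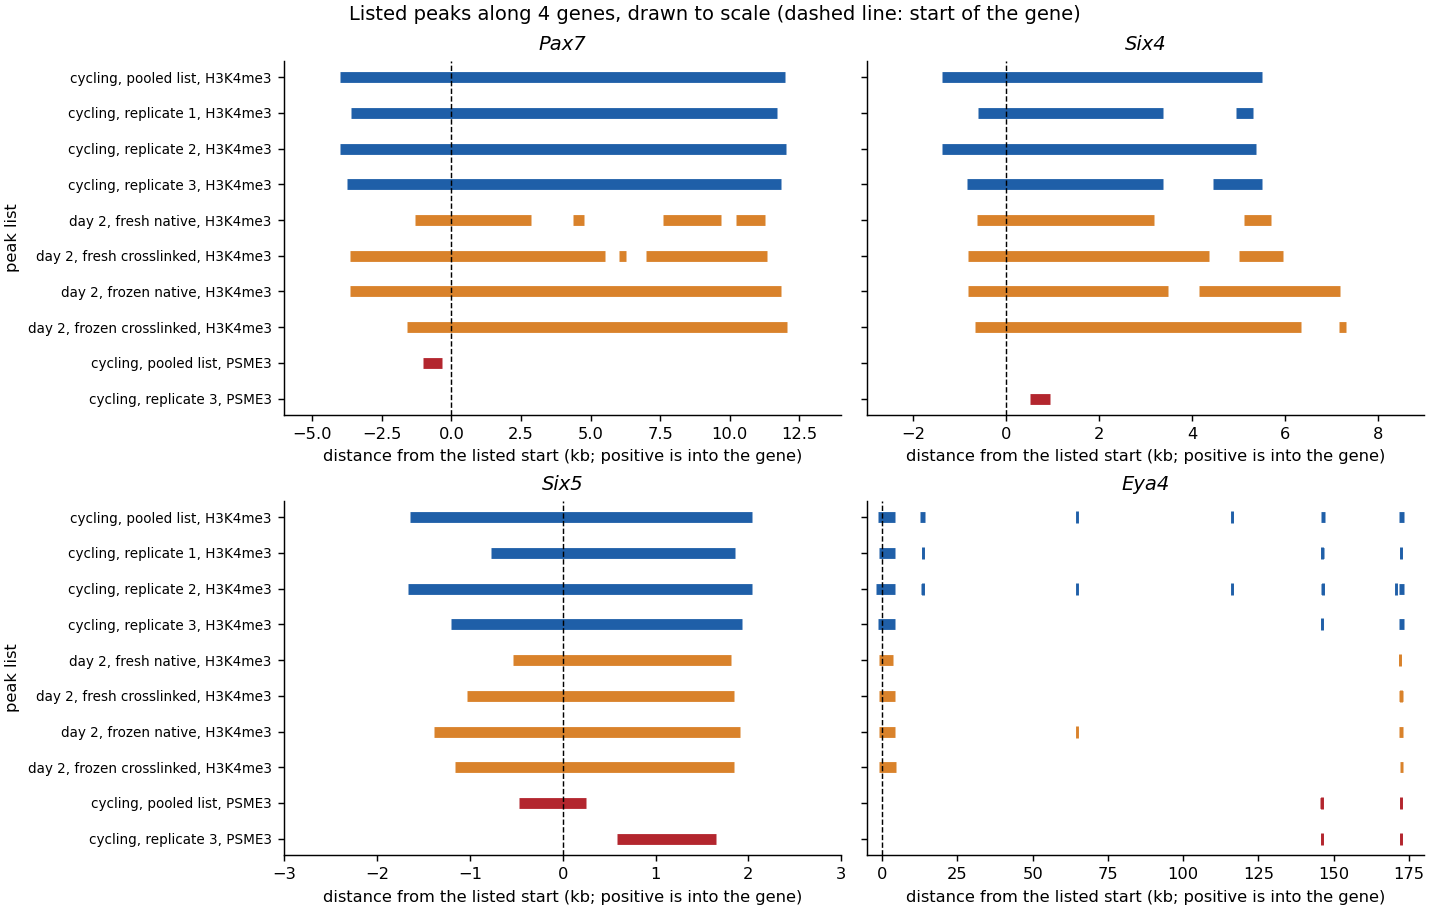
Peaks drawn to scale along Pax7, Six4, Six5 and Eya4, with distance from the listed start in kb on the x axis and 1 peak list per row. Distances are from the first of 2 listed starts at Six4. At Eya4 they are from the nearer of 2 to each peak, or the first if it covers both. Blue marks cycling H3K4me3, orange day 2 H3K4me3 and red cycling PSME3, and weaker Pax7 peaks farther into the gene are not drawn. PSME3 is listed near the start of Pax7, Six4 and Six5, but none of these peaks overlaps a PSME3 peak of another list. At Eya4 both PSME3 peaks lie at least 145604 bp into the gene, away from the H3K4me3 peak at the start.

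PSME3 was listed at Pax7, Six5 and Eya4 in the pooled cycling list, 3 of the 9 genes, against 11.8% of all genes and 21.9% of protein-coding genes. Replicates 1 and 2 listed it at none of the 9, against 2.5% and 1.93% of all genes, and replicate 3 at Six4, Six5 and Eya4, against 7.08%. In the day 2 lists it was at none of the 9, with 0.03% of all genes in the fresh native, 0.022% in the fresh crosslinked, 0.494% in the frozen native and 0.192% in the frozen crosslinked list. With so few listed peaks, an absence at any of these genes on day 2 was not distinguishable from the background. The mean number of the 9 genes with PSME3 was 1 ± 1.73 (SD, n = 3) in cycling cells and 0 in all 4 day 2 libraries, a two-sided exact permutation p of 0.857, with replicate 3 alone above 0. Without replicate 3, none of the 3 genes had a pooled PSME3 peak that a replicate list also held. In the cycling replicates, H3K4me3 marked 6.33 more of the 9 genes than PSME3, with a two-sided exact permutation p of 0.1, which is the smallest that 3 against 3 libraries allow. The cycling PSME3 lists had 776 to 3070 peaks against 18077 to 40999 for H3K4me3, and the part of this in the difference was not tested.

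At Pax7 the PSME3 peak, at chr4:139833291-139833969, was 679 bp wide with a fold enrichment of 2.76 and a −log10 q of 1.19. The peak lay 1001 to 323 bp before the listed start, inside the broad H3K4me3 domain, and crossed the end of the gene span at 139833530. No replicate list held a PSME3 peak overlapping it. At Six5 the pooled peak at chr7:19094072-19094790 (719 bp, fold enrichment 2.79, −log10 q 1.24) ran from 472 bp before the start to 246 bp into the gene and covered all 250 bases of the promoter stretch printed for Six5. Replicate 3 listed a different peak there, at chr7:19095131-19096195 (1065 bp, fold enrichment 3.37), from 587 to 1651 bp into the gene, and the pooled and replicate peaks did not overlap. At Six4 replicate 3 alone listed a peak of 436 bp at chr12:73112301-73112736, with a fold enrichment of 3.95 and a −log10 q of 2.26, from 509 to 944 bp into the gene.

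Eya4 was the gene with the strongest listed PSME3 enrichment of the 9, and it lay deep in the gene. The pooled peak at chr10:23177274-23177767 (494 bp) had a fold enrichment of 3.87, higher than that of 95.2% of the 5812 pooled PSME3 peaks, and a −log10 q of 4.60. Replicate 3, which is part of the pooled list, listed it at nearly the same place, chr10:23177310-23177765. Replicates 1 and 2 listed no PSME3 peak at Eya4. The peak lay inside a weak H3K4me3 peak at chr10:23176390-23178224, of 1835 bp and fold enrichment 3.91, which was overlapped in all 7 H3K4me3 libraries. A second pooled PSME3 peak at chr10:23203527-23204286 (760 bp, fold enrichment 2.88, −log10 q 1.39), also in replicate 3, overlapped an H3K4me3 peak at chr10:23202870-23204241 with a fold enrichment of 3.04, which was overlapped in all 3 cycling replicates and in no day 2 library. The pooled sites lay 172123 and 145604 bp from the nearer listed start, within the gene span, and the gene table used here does not tell exons from introns. PSME3 was not listed at the H3K4me3 peak over the Eya4 start in any library. For the other genes the nearest pooled PSME3 peak lay 43571 bp from Eya3, 45583 bp from Six4, 83997 bp from Eya2, 173416 bp from Eya1, 340420 bp from Pax3 and 572069 bp from Six2.

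The comparison of cycling and day 2 cells asked whether the H3K4me3 width at these genes differed once differentiation had begun. The summed width of all H3K4me3 peaks at a gene was wider in every cycling library than in every day 2 library at Pax3 and Eya4, 2 of the 8 genes with H3K4me3 in any library, and at none of them was it the other way. Over all genes with H3K4me3 in the 7 libraries, the mean was wider in cycling cells at 13526 of 14431. By the rule of no overlap, 36% of the 20262 genes with H3K4me3 in any library were wider in all 3 cycling libraries and 0.869% were narrower, 7285 genes against 176. When each width was replaced by its percentile among all genes of the same list, 8.69% were higher in all 3 cycling libraries and 13.2% lower, 1761 genes against 2679. Percentiles set every list to the same overall level, so they show the place of a gene among the others and not a general shift. With 3 against 4 libraries the smallest exact permutation p is 0.0571, so 0 of 20262 genes reached an unadjusted or a Benjamini-Hochberg adjusted p of 0.05, and the lowest adjusted value was 0.155.

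Pax3 had summed widths of 1814, 2236 and 1584 bp in cycling replicates 1, 2 and 3. On day 2 they were 852 bp in the fresh native, 927 bp in the fresh crosslinked, 836 bp in the frozen native and 775 bp in the frozen crosslinked library. The lowest cycling library was thus well above the highest day 2 library, and the mean was 1878 ± 331 bp (SD, n = 3) in cycling cells against 848 ± 62.5 bp (SD, n = 4) on day 2, with an exact permutation p of 0.0571 and an adjusted p of 0.155. The ratio of the means was 2.22, higher than that of 95.8% of the 14431 genes with H3K4me3 in all 7 libraries, whose median was 1.28. The difference of means at Pax3, 1030 bp in summed width, was 362 bp for the widest peak alone and 548 bp when peaks above a q-value of 0.01 were dropped, so much of it lay in the weaker peaks. As a percentile of its list the width was 72.5 to 75.6 in cycling cells and 70.5 to 73.6 on day 2, which overlap.

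Eya4 had summed widths of 7684, 10860 and 7685 bp in the cycling replicates and of 5377, 6387, 6814 and 6942 bp on day 2, in the same order of preparations. The mean difference was 2363 bp, or 1304 bp without replicate 2, with an exact permutation p of 0.0571 and an adjusted p of 0.155. The lowest cycling value was above the highest day 2 value, but the peak over the start did not separate the stages, at 5154, 6276 and 5443 bp against 4615, 5177, 5337 and 5670 bp. The mean difference of the widest peak was 425 bp of the 2363 bp, so most of the difference lay in the weaker peaks inside the gene. The percentiles, 98.4 to 98.8 in cycling cells and 98.3 to 98.9 on day 2, also overlapped, but so near the top of the scale they move little with width.

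Six4 was the gene with the reverse order of means, 5473 ± 1218 bp (SD, n = 3) in cycling cells and 6256 ± 1368 bp (SD, n = 4) on day 2. Its values were 4362, 6775 and 5282 bp in the cycling replicates and 4370, 6127, 7335 and 7193 bp on day 2, so the ranges overlapped, with an exact permutation p of 0.457. The difference of -783 bp, cycling minus day 2, was -228 bp without replicate 1 and -1434 bp without replicate 2. For the widest peak alone it was -80.9 bp, with an exact permutation p of 0.857. The ratio of 0.875 was lower than that of all but 2.21% of the 14431 genes, of which 6.27% had a ratio of 1 or less. In the frozen native library, the day 2 preparation handled like the cycling cells, the width of 7335 bp lay above all 3 cycling values, although its peak over the start, of 4296 bp, lay within the cycling range of 3999 to 6775 bp. By percentile Six4 was higher in every day 2 library, 97.8 to 99.0, than in every cycling library, 94.1 to 95.5, with an exact permutation p of 0.0571, an order that 13.2% of the 20262 genes had. Six5 was likewise higher by percentile on day 2, 87.6 to 91.2 against 83.6 to 86.3, while its widths in bp overlapped.

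**Figure D4:**
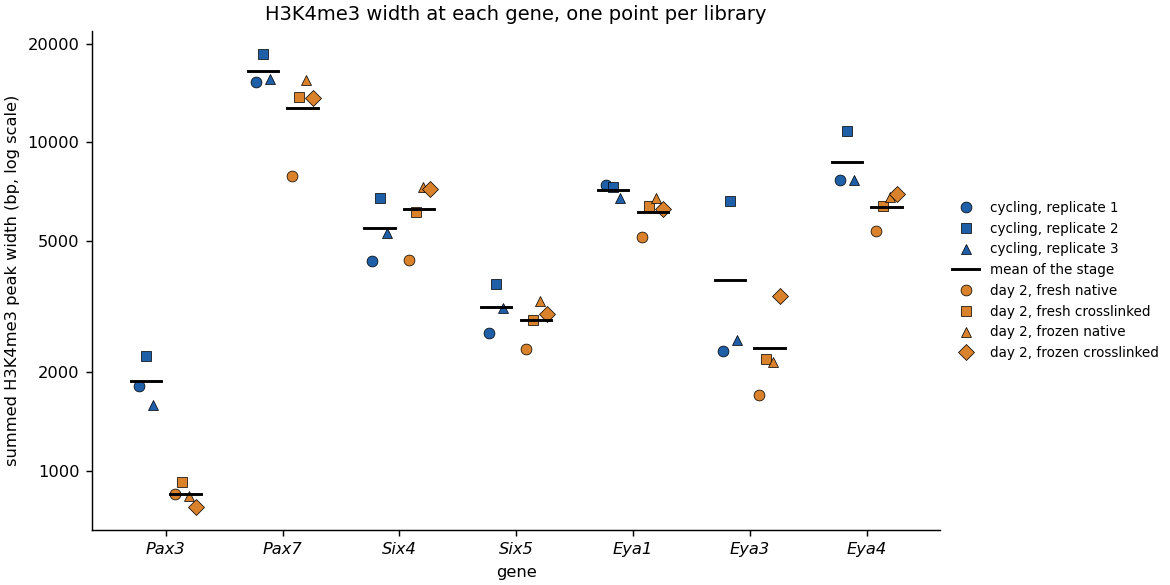
Summed H3K4me3 width in bp (log scale) at the 7 genes with a peak in all 7 libraries, 1 point per library, blue for cycling replicates and orange for day 2 preparations, with black lines at the mean of each stage. The stages separate at Pax3 and Eya4, with cycling wider, as at 36% of the 20262 genes with H3K4me3 in any library. Six4 is the gene whose day 2 mean is above its cycling mean.

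At Pax7 the cycling widths of 15300, 18611 and 15573 bp stood against 7889, 13771, 15462 and 13671 bp on day 2, with an exact permutation p of 0.114 and an adjusted p of 0.243. The frozen native value fell between the cycling values and the fresh native value was the low one, so that a difference of 3796 bp stood beside an SD of 3310 bp among the 4 day 2 preparations. Eya1 had 7420, 7293 and 6766 bp in cycling cells and 5161, 6388, 6776 and 6261 bp on day 2, and the ranges met at 6766 and 6776 bp (exact permutation p 0.114). Eya3 had 2324, 6644 and 2494 bp against 1705, 2192, 2139 and 3398 bp (exact permutation p 0.343). Its mean difference of 1462 bp became 50.5 bp without replicate 2, which held peaks inside the gene that the other replicates did not list. Over the 7 genes the median ratio of cycling to day 2 means was 1.30, close to the 1.28 of all genes.

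**Figure D5:**
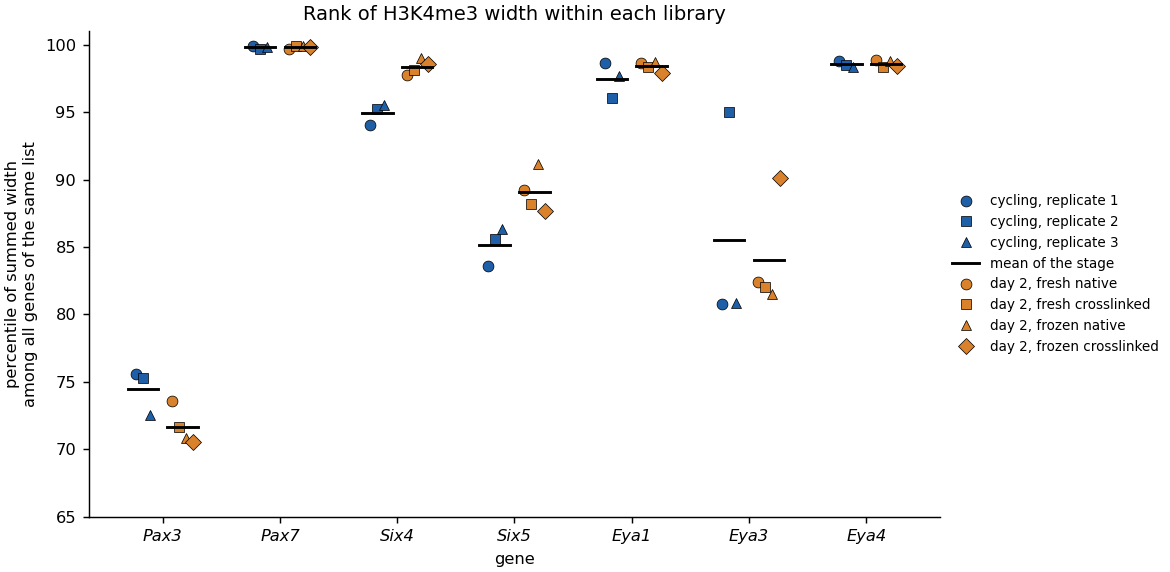
Percentile of the summed H3K4me3 width among all genes of the same list (y axis, shown from 65) at the 7 genes, 1 point per library, blue for cycling replicates and orange for day 2 preparations, with black lines at the mean of each stage. Pax7 stays between 99.7 and 99.9 in the 7 libraries. At Six4 and Six5 every day 2 point lies above every cycling point, as at 13.2% of the 20262 genes with H3K4me3 in any library.

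For each marked gene the protein-coding gene with the most similar summed widths of both antibodies was sought over the 14 libraries, by the mean absolute difference of log2(width + 1). Nearest to Eya1 was Cited2, at 0.0330, and nearest to Pax7 was Arid5b, at 0.0451. Arid5b had summed widths of 15572, 19466 and 18046 bp in the cycling replicates, and the widths of its single peaks were not examined. Nearest to Eya4 was Map2k3 (0.0728), to Six4 Neurl1a (0.0756), to Six5 Alg2 (0.0580, tied with 1 other gene), to Eya3 Acad12 (0.0568) and to Pax3 Rfc2 (0.0837). Eya2, with its 1 marked library, was nearest to Gsc (0.000315, 1 of 3 tied genes). Nearness here is likeness of widths alone.

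Among 25 related genes, namely other PAX, sine oculis and DACH genes, other early regulators of muscle progenitors, their receptors, and the myogenic bHLH factors, 16 had a pooled H3K4me3 peak and 10 had one in all 7 libraries. H3K4me3 was listed in no library at 7 of them, Dach2, Six3, Six6, Pax1, Pax8, Pax9 and Tcf21, most of which act in organs other than muscle. Of the other 18, the mark was wider in all cycling libraries at 6 and narrower at 1, against 36% and 0.869% of the 20262 genes with H3K4me3 in any library. The gene with the narrower mark was Myog, the bHLH factor of differentiating muscle, which had no peak in cycling cells and 1491 to 3433 bp on day 2. PSME3 was in the pooled list at Myod1, with a peak of 219 bp, and in the day 2 lists at none of the 25.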

How the data were processed

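CUT&RUN peak lists of 14 libraries and 2 pooled cycling lists were analysed. The authors cleaned the reads (Trim Galore), mapped them to mm10 (Bowtie2) and called broad peaks (MACS2), with versions and control library not given in the sources used here. Each deposited list gives peak positions, a fold enrichment over background, which is a ratio, and, per the layout of the files, the −log10 of a q-value. All were called at a q-value below 0.1. Read numbers are not part of the lists, so no counting interval can be given, and longer or more numerous peaks can reflect depth as well as the mark.

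The 9 genes, the related genes and the markers were chosen with earlier results of these data known. Gene spans came from RefSeq (GRCm38.p6), which is the mm10 assembly. A peak belonged to a gene when it shared at least 1 bp with the span extended by 1 kb, and the widths of its peaks were summed in full. A peak can belong to several genes. The table gives no strand, so distances from the start were computed where the RefSeq promoter table holds one. That listed start lies inside the gene span at Pax7, Six4, Eya3 and Eya4, so bases before it can still be in the span. Of 2 listed starts, the nearer to each peak was used. All 9 genes are named, with the nearest gene in width for each marked one, genes sharing a peak, and, of the 25 related genes, those with pooled PSME3, those without H3K4me3 and, after its values were seen, Myog. A result among the related genes is not reported here.

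Stages and antibodies were compared with two-sided exact permutation tests in Python 3.11.15 (numpy 2.4.6, pandas 2.3.3, scipy 1.17.1), with Benjamini-Hochberg adjustment over 20262 genes. The 4 day 2 preparations were set together, so their spread includes handling, and stage cannot be told apart from any culture difference between the stages. The functions were tested on simulated data, where all 200 genes and all 50 permutation p-values were recovered. PSME3 and H3K4me3 share replicate numbers. Over 19 autosomes, the deviations of their log2 share of peaks had a Pearson r of 0.538, 0.552 and 0.264 within replicates 1, 2 and 3, so a replicate block was an alternative. Across numbers, the r between PSME3 library 1 and H3K4me3 library 3 was 0.521. Other alternatives were distances of 0 and 5 kb, a q-value of at most 0.05 or 0.01, the peak centre, other measures of width, pooled peaks in at least 2 replicates, each replicate left out, and frozen or native day 2 preparations alone. The promoter sequences are 250 bases long. The width of 5 kb taken for a broad peak was chosen after the data were seen.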

Additional observations from a re-analysis of the deposited data

How the results depend on the processing

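Of 164 alternative values, 151 were classed as the same, 8 as moved and 5 as reversed. The class of the same holds values that fell far or to 0. The Eya3 difference went from 1462 to 50.5 bp without replicate 2. The difference in genes with PSME3, cycling minus day 2, went from 1 to 0 without replicate 3. The 7 genes with pooled H3K4me3 were 7 under every alternative run. The 3 genes with pooled PSME3 became 1 (Eya4) at a q-value of at most 0.05 and 1 at 0.01, 0 when the pooled peak had to recur in at least 2 replicates, and 0 to 1 when each replicate was left out and the rest had to hold an overlapping peak, with 0 without replicate 3. The 6.33 more genes with H3K4me3 than with PSME3 had an exact p of 0.25 with replicate number as a block, the smallest that 3 pairs allow, and the block changed no call. The 7461 genes whose widths did not overlap between stages became 11472 with native day 2 preparations alone, 8753 with frozen ones alone, and 4440 by percentile. By percentile, which removes any shift common to all genes, the cycling minus day 2 difference was below 0 at Pax7 (-0.0186), Six5 (-3.89), Eya1 (-0.956) and Eya4 (-0.0312), and no direction can be read at Pax7 and Eya4, which lie near the top of that scale. At Six5 the difference in bp was -0.75 to 538 as each replicate was left out, and negative without replicate 2. At Pax3 the widths stayed apart in every alternative except the percentile. At Eya4 they overlapped by percentile and by widest peak. Widths that overlapped in the report separated at Six4 with the frozen preparations alone (-1791 bp) and by percentile, at Six5 by percentile, and, with cycling wider, at Pax7 without replicate 1 (4394 bp), at Eya1 without replicate 3 (1210 bp) and at Eya3 with the native preparations alone (1899 bp). The cause of these shifts was not tested. Unknown depth limits any reading of a peak that is not listed.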
